A study of Sus scrofa with 36 samples.

Results

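PLIN1, CIDEC, LIPE and PLA2G16 encode proteins that build the lipid droplet of the fat cell or release fatty acids from its lipids, and they were described here over pigs that differ in obesity. The 4 genes were taken by name from the 12253 genes of the expression table of subcutaneous adipose tissue, through the Ensembl identifiers ENSSSCG00000001844 for PLIN1, ENSSSCG00000011557 for CIDEC, ENSSSCG00000003018 for LIPE and ENSSSCG00000026914 for PLA2G16, which newer annotation names PLAAT3. All of them passed the filter of the authors on low levels and were measured in every pig. The 36 pigs came from an F2 cross between Göttingen minipig boars, a small breed prone to obesity, and sows of the lean production breed Duroc. They were chosen on the Obesity Index, a predicted genetic value for obesity: 12 pigs with a low index (Low, lean), 12 around the middle (Mean, intermediate) and 12 with a high index (High, obese). The Low group held 7 males and 5 females, and the Mean and High groups each held 6 males and 6 females. No pig received a treatment. The pigs were slaughtered at a similar weight, so that the Low pigs were the oldest, and age and group cannot be told apart. Full sibs could occur within a group and the libraries were spread over several sequencing lanes, but neither is known per pig here, and the p-values treat pigs as independent.

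Fat cells keep triglyceride in one large droplet. PLIN1, perilipin 1, coats that droplet and keeps lipases away from it until hormones such as adrenaline lead to its phosphorylation. CIDEC, also called FSP27, gathers at contacts between droplets, lets lipid flow from the smaller to the larger one and so helps to form the single large droplet. LIPE, hormone-sensitive lipase, mainly cleaves diacylglycerol, the step that follows the first cleavage of triglyceride by PNPLA2 and precedes the last by MGLL. PLA2G16, adipose phospholipase A2, releases fatty acids from phospholipids, and in mice its loss is known to lower prostaglandin E2 in fat and to raise lipolysis.

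Recovered reads per pig ranged from 8735839 to 11755925, and values in the text are normalized counts, meaning reads divided by the size factor of the pig. The 4 genes were well covered, with at least 815 reads for PLA2G16, 4601 for CIDEC, 7127 for LIPE and 12527 for PLIN1 in any pig. The measured adipocyte markers, PPARG, CEBPA, ADIG and CFD (4 of 12 listed), had summed counts of 5153 to 9638 in Low, 6584 to 9399 in Mean and 5550 to 10191 in High pigs. After the filter of the authors, no gene in the table had fewer than 6 reads in any pig. The presence of a measured marker in every pig was thus fixed beforehand and tells nothing about the tissue. The pig Low 7 stood apart: its summed count of the skin markers KRT10 and DSP was 14390, against at most 362 in the other Low pigs, and it had the lowest count of all 36 pigs for each of the 4 genes. The skin sum rested on DSP, with a mean of 1219 ± 4055 (SD) over the 12 Low pigs, against 129 ± 55.6 for KRT10. Differences are therefore also given without Low 7. Blood markers (HBB and ALAS2, 2 of 4 listed) were high in Low 6, with a summed count of 16052 against at most 3064 in the other Low pigs, and in 2 High pigs, with 17368 and 18078.

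CIDEC was the member with the largest difference between the outer groups. Its counts had a lowest, median and highest value of 4170, 8177 and 12643 in the Low pigs, of 5164, 9460 and 13702 in the Mean pigs and of 6560, 11348 and 15602 in the High pigs. The means ± SD were 8004 ± 2809, 9765 ± 2302 and 11348 ± 2456 (n = 12 each). Of the 12 High pigs, 11 lay above the median of the Low pigs and 3 above every Low pig, so the groups overlapped although they were ordered as Low, Mean and High. With sex in the model, CIDEC was 0.54 higher in High than in Low pigs on the log2 scale (standard error 0.16, 95% interval 0.21 to 0.87, 1.45-fold). This difference had an unadjusted p of 0.00199 and an adjusted p of 0.106 over all genes, and did not pass the threshold of 0.05. Neighbouring groups differed less, by 0.32 for Mean minus Low (adjusted p = 0.418) and by 0.22 for High minus Mean (adjusted p = 0.989). Fitted as a trend over the ordered groups, CIDEC had a slope of 0.27 per step (standard error 0.080, adjusted p = 0.103).

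The High minus Low difference of CIDEC stayed positive when any of the 36 pigs was left out, between 0.47 and 0.61, with adjusted p from 0.0651 (without Low 10) to 0.215 (without Low 6, the pig with high blood markers). Without Low 7 it was 0.47 (adjusted p = 0.179). In females the mean count was 6923 ± 1922 in Low (n = 5) and 12383 ± 2398 in High (n = 6), and in males it was 8776 ± 3215 (n = 7) and 10313 ± 2226 (n = 6). Fitted within each sex, the difference was 0.80 in females (adjusted p = 0.117) and 0.33 in males (adjusted p = 0.551). The difference between the sexes in this contrast was -0.47 for males minus females, with a 95% interval of -1.13 to 0.19 and an adjusted p of 0.535, so a different response of the sexes was not shown. Without Low 7 it was -0.62 (unadjusted p = 0.0494, adjusted p = 0.360). With the whole size factor it was -0.55 (adjusted p = 0.499). The median of all genes in this contrast was 0.09 in the main fit and 0.003 with the whole size factor. In High minus Low, where 47.5% of all genes lay above 0, macrophage markers leaned the same way as CIDEC without passing. All 6 measured ones (of 11 listed) had a difference above 0 in High minus Low, 5 of them at an unadjusted p under 0.05 and 0 at an adjusted one by limma, and their summed count had a median of 2513 (1724 to 9027) in Low and 6733 (3928 to 10126) in High pigs. The 4 measured endothelial markers (of 8 listed) were all below 0 in High minus Low (median log2 difference -0.31), 2 of them at an unadjusted p under 0.05 and 0 called. The lowest p among them was that of TIE1 (-0.51, unadjusted p = 0.000186, adjusted p = 0.0709), and their summed count had a median of 12386 (9118 to 16246) in Low and 10788 (7292 to 12468) in High pigs. Of the 6 fibroblast or progenitor markers, 5 were above 0 (median 0.26), 1 of them, PI16, at an unadjusted p under 0.05 (0.98, unadjusted p = 0.0253, adjusted p = 0.255), and 0 were called. In these bulk samples, fewer cells of a type and less RNA per cell cannot be told apart, and the part of these markers in the CIDEC difference was not tested.

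PLA2G16 was lowest in the Low pigs, with the Mean and High pigs at the same level. Its counts were 795, 1155 and 1635 (lowest, median, highest) in Low, 1083, 1435 and 2075 in Mean and 946, 1480 and 2418 in High pigs. Of the 12 Mean pigs 10, and of the 12 High pigs 9, lay above the Low median, while the ranges overlapped. The means were 1186 ± 246, 1485 ± 324 and 1482 ± 436 (SD, n = 12 each). PLA2G16 was 0.28 higher in Mean than in Low (standard error 0.12, unadjusted p = 0.0295, adjusted p = 0.358) and 0.25 higher in High than in Low (standard error 0.12, unadjusted p = 0.0494, adjusted p = 0.339), and neither passed the threshold. High minus Mean was -0.03, with a 95% interval of -0.28 to 0.22. Without Low 7 the 2 differences from Low were 0.25 (unadjusted p = 0.0538, adjusted p = 0.503) and 0.22 (unadjusted p = 0.0861, adjusted p = 0.468). The summed T or NK cell markers (3 of 10 measured) had medians of 208 (108 to 367) in Low, 305 (95.5 to 591) in Mean and 335 (142 to 1431) in High pigs. All 3 lay above 0 in High minus Low, 1 of them, NKG7, at an unadjusted p under 0.05 (log2 difference 0.84, unadjusted p = 0.00704, adjusted p = 0.156). Their part in the PLA2G16 difference was not tested. The study had singled out PLA2G16 on these same pigs for its level and its connectivity, so its direction here is not independent evidence.

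The droplet coat gene PLIN1 showed little difference between the groups. Its counts ran from 11354 to 27939 in Low (median 22328), from 13045 to 27781 in Mean (median 19041) and from 12653 to 30608 in High pigs (median 21202), and the ranges overlapped almost fully. The means were 20986 ± 5258, 19563 ± 4145 and 20838 ± 5902 (SD, n = 12 each). High minus Low was -0.06 (95% interval -0.33 to 0.21, adjusted p = 0.887), and the interval leaves room for no more than a 1.16-fold higher or a 0.794-fold level in High pigs. Without Low 7 the difference was -0.12 (adjusted p = 0.768).

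LIPE was likewise not separated by group. Its counts were 6460, 13534 and 21664 (lowest, median, highest) in Low, 10535, 13152 and 20929 in Mean and 8912, 13620 and 26023 in High pigs. The 3 medians lay close together, and the widest range was that of the High pigs. The means were 13960 ± 4698, 13893 ± 3247 and 15599 ± 5228 (SD, n = 12 each), and High minus Low was 0.10 (95% interval -0.17 to 0.38, adjusted p = 0.777). Without Low 7 it was 0.04 (adjusted p = 0.939).

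**Figure D1:**
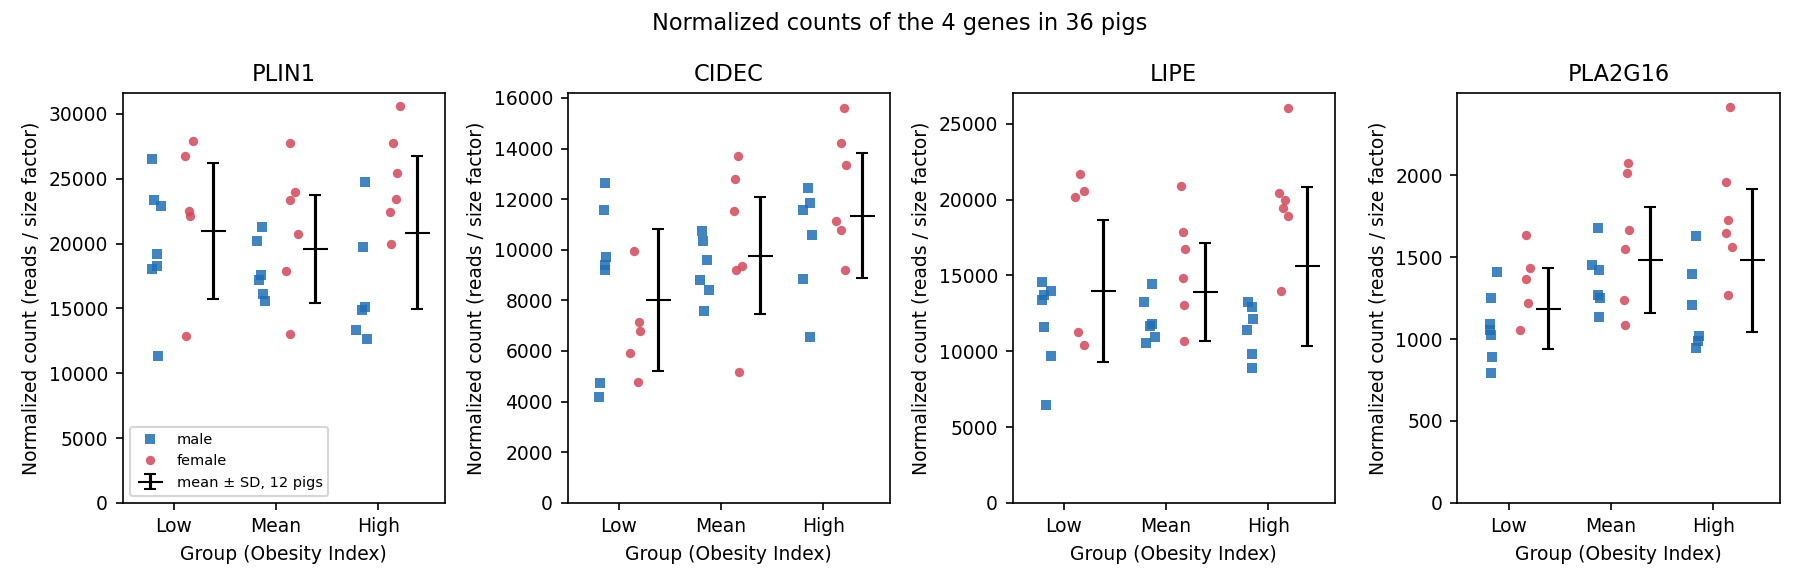
Normalized counts (reads divided by the size factor, linear axis from 0) of PLIN1, CIDEC, LIPE and PLA2G16 in the 12 Low, 12 Mean and 12 High pigs; squares are males, circles females, and the bar is the mean ± SD of the 12 pigs. The CIDEC mean goes from 8004 in Low to 11348 in High pigs with overlap, and all High males (LIPE up to 13275) lie below all High females (from 13964) for LIPE.

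Set against all genes, these were small counts. None of the 4 genes passed the adjusted threshold in High minus Low, in Mean minus Low, in High minus Mean or in the trend by limma. Over all 12253 genes, limma called 5 (0.0408%) in High minus Low and 3 (0.0245%) in the trend. In Mean minus Low it called 0 (0.00%), with 700 genes higher and 835 lower at an unadjusted p under 0.05, and in High minus Mean also 0 (0.00%), with 524 such genes (4.28%). With voom weights on the recovered reads, the numbers called were 17, 24, 0 and 0. Single pigs decided much of the number: without Low 2 limma called 292 genes in High minus Low (191 higher, 101 lower) and 274 in the trend, and without Low 3 it called 1 in High minus Low. CIDEC was called in none of these fits. At an unadjusted p under 0.05, CIDEC and PLA2G16 were higher in High than in Low pigs, where 6.81% of all genes were, and PLA2G16 was higher in Mean than in Low pigs, where 5.71% were. Without Low 7, CIDEC kept such a p in High minus Low and PLA2G16 kept it in neither contrast. The unadjusted p of PLA2G16 in High minus Low by limma was 0.0309 with the whole size factor and 0.0583 with only the 2 groups. In High minus Mean, none of the 4 reached an unadjusted p under 0.05.

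**Figure D2:**
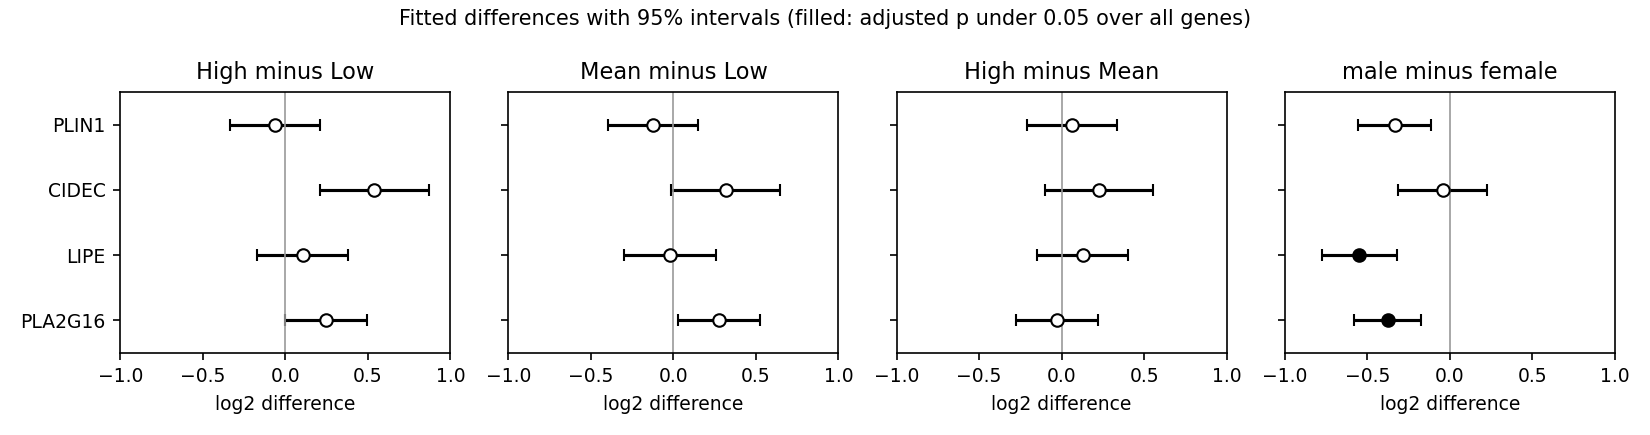
Fitted log2 differences of the 4 genes for High minus Low, Mean minus Low, High minus Mean and male minus female, with 95% intervals from limma over 36 pigs; filled circles have an adjusted p under 0.05 over 12253 genes. The only filled circles are LIPE (-0.55) and PLA2G16 (-0.37) in male minus female, and CIDEC at 0.54 has the interval farthest from 0 in High minus Low.

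Because the size factor cancels in a ratio of 2 genes of the same pig, reads of the members were also set against each other. Per 100 PLIN1 reads, the Low pigs had 17.8, 36.7 and 63.4 CIDEC reads (lowest, median, highest), the Mean pigs 39.0, 48.1 and 76.8 and the High pigs 36.2, 55.2 and 79.5. The lowest of these values was that of Low 6. All 12 Mean pigs and 11 of the 12 High pigs lay above the Low median. Reads of the droplet fusion gene were thus more numerous, relative to those of the coat gene, in most Mean and High pigs than in the middle of the Low group. Within sexes, the log2 ratio of PLIN1 over CIDEC was lower in High than in Low pigs (High minus Low -0.61, two-sided permutation p = 0.00135, adjusted over the 6 pairs of members 0.00810). It ran from -0.69 to -0.52 when 1 pig was left out, passing in each of the 24 fits (adjusted p up to 0.0222), and was -0.59 without Low 7 and -0.52 without Low 6. LIPE reads per 100 CIDEC reads had medians of 152 in Low, 139 in Mean and 139 in High pigs, and the Low pigs spread widest, from 76.6 to 347. In High minus Low the log2 ratio of CIDEC over LIPE was at 0.45 (permutation p = 0.0261, adjusted 0.0523). By sex the medians of LIPE reads per 100 CIDEC reads were 132 in males (76.6 to 297) and 167 in females (108 to 347). Within groups, the log2 ratio of CIDEC over LIPE was 0.50 higher in males (permutation p = 0.00049, adjusted over the 6 pairs 0.00294), it lay above the female median in 18 of 19 males, and it passed in each of the 36 fits without 1 pig. All 6 pairs were tested in both contrasts, 12 tests in all, and the other 9 had adjusted p from 0.0523 to 0.671. The ratios were chosen after the values of the 4 genes had been seen, and their p-values were adjusted over these pairs and not over all genes, so they are not independent evidence.

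**Figure D3:**
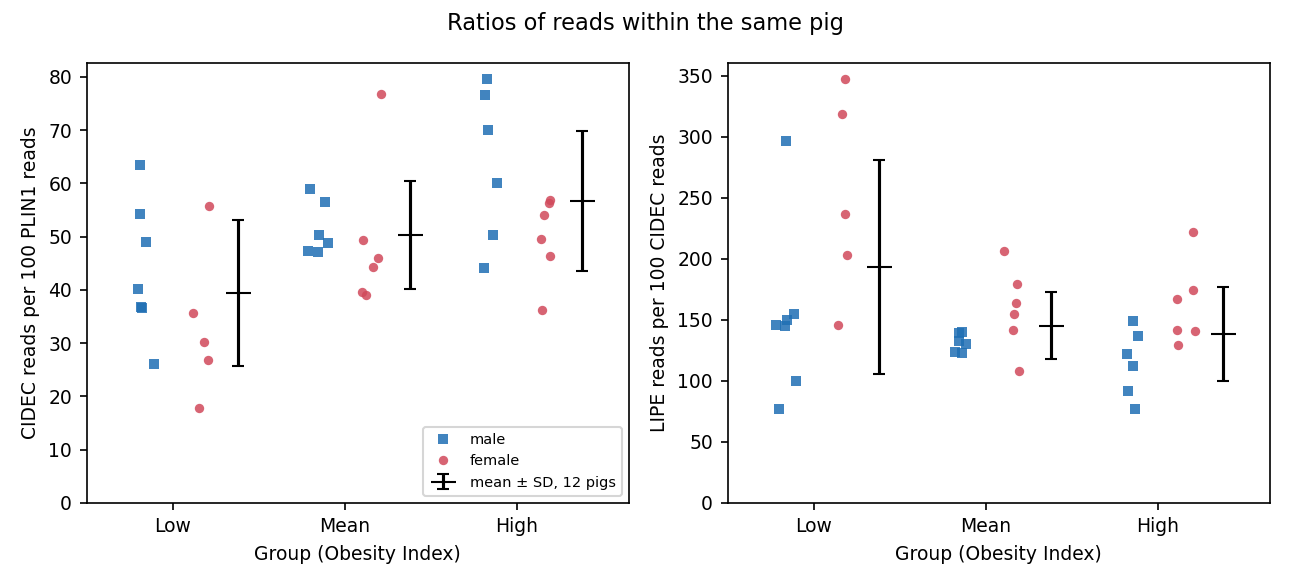
CIDEC reads per 100 PLIN1 reads (left) and LIPE reads per 100 CIDEC reads (right) in each pig, on linear axes from 0, by group; squares are males, circles females, and bars are mean ± SD of 12 pigs. Median CIDEC reads per 100 PLIN1 reads go from 36.7 in Low to 55.2 in High pigs, and the widest spread of LIPE per CIDEC is in the Low pigs.

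Sex was the contrast with the clearest difference in these genes. LIPE, the hormone-sensitive lipase, had a mean count of 11810 ± 2098 in the 19 males and 17472 ± 4437 in the 17 females. It was 0.55 lower in males on the log2 scale (male minus female -0.55, standard error 0.11, 95% interval -0.78 to -0.32), a level 0.684-fold that of females, with an adjusted p of 0.00534. All 19 males lay below the female median, and 12 of the 17 females lay above every male. The result passed the threshold in each of the 36 fits that left out 1 pig, with adjusted p from 0.00138 to 0.0132, and without Low 7 it was -0.51 (adjusted p = 0.00719).

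The LIPE difference between the sexes had the same sign in each group. In the Low group, the males ran from 6460 to 14586 (median 13349) and the females from 10406 to 21664 (median 20176). In the Mean group, the males ran from 10535 to 14459 (median 11724) and the females from 10648 to 20929 (median 15786). In the High group, the males ran from 8912 to 13275 (median 11769) and the females from 13964 to 26023 (median 19691). Within the High group the sexes did not overlap for LIPE, a separation in that direction that 1.00% of all genes showed. Fitted within groups, male minus female was -0.53 in Low (adjusted p = 0.543), -0.36 in Mean (adjusted p = 0.857) and -0.76 in High pigs (adjusted p = 0.0398). In the High pigs alone, limma called 69 of the 12253 genes lower and 139 higher in males. That the sex difference itself differed between High and Low was not shown (-0.23, 95% interval -0.79 to 0.33, adjusted p = 0.746). With the whole size factor this value was -0.31 (adjusted p = 0.661).

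PLA2G16 and PLIN1 were also lower in males, less firmly than LIPE. The counts of PLA2G16 ran from 795 to 1677 in males (median 1207, mean 1206 ± 246, n = 19) and from 1058 to 2418 in females (median 1564, mean 1584 ± 374, n = 17). Male minus female was -0.37 (standard error 0.10, adjusted p = 0.0396). This call was lost when any one of 17 pigs was left out, namely High 1, 2, 3, 4, 5, 6 and 11, Low 3, 6, 7, 9 and 11, and Mean 1, 5, 6, 9 and 10, with an adjusted p of up to 0.0717 and a difference between -0.41 and -0.33 over all fits. Without Low 7 it was -0.36 (adjusted p = 0.0546). PLIN1 ran from 11354 to 26551 in males (median 18028, mean 18318 ± 4168, n = 19) and from 12839 to 30608 in females (median 23351, mean 22860 ± 4956, n = 17). Its difference of -0.33 (standard error 0.11, unadjusted p = 0.00445) had an adjusted p of 0.0920 and did not pass. It did pass without Low 1 (adjusted p = 0.0242) and without Mean 8 (adjusted p = 0.0389), both females with low PLIN1, and without Low 7 the difference was -0.30 (adjusted p = 0.120).

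For CIDEC a sex difference was not shown. Its mean was 9409 ± 2379 in males (n = 19) and 10038 ± 3290 in females (n = 17), and male minus female was -0.04 (95% interval -0.31 to 0.23, adjusted p = 0.908). The sign differed between groups: the difference was 0.23 in the Low pigs alone (adjusted p = 0.806), -0.11 in the Mean pigs alone (adjusted p = 0.981) and -0.24 in the High pigs alone (95% interval -0.61 to 0.13, adjusted p = 0.457). It was -0.0033 over all groups without Low 7. The interval over all pigs reaches nearly to the estimate of PLIN1, and by the ratios within pigs its sex difference differed from that of LIPE (adjusted p = 0.00294), while against PLIN1 and PLA2G16 the adjusted p was 0.0580 in each case.

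Of the 4 genes, LIPE and PLA2G16 were called lower in males, where limma called 151 genes (1.23%) in that direction. At an unadjusted p under 0.05 PLIN1 joined them, where 10.3% of all genes were lower in males. In the contrast of the sexes over High minus Low, none of the 4 was called, and 1 gene (0.00816%) was. Of the cell type markers, 2 passed the adjusted threshold by limma in male minus female, both of fibroblasts or progenitors. In this contrast 47.7% of all genes lay above 0. The adipocyte markers had a difference below 0 in male minus female in 4 of 4 cases (median log2 difference -0.33), 1 of them at an unadjusted p under 0.05 and 0 called, and their summed count had a median of 7028 (5153 to 9267) in males and 8546 (6584 to 10191) in females. The 6 measured fibroblast or progenitor markers (of 10 listed) had a difference above 0 in 5 cases, and the 2 called ones were COL1A2 and DCN. Their summed count had a median of 453802 (251475 to 794400) in males and 276539 (147058 to 585372) in females. The 3 measured T or NK cell markers (of 10 listed) were below 0, each at an unadjusted p under 0.05 and 0 called, with adjusted p of 0.0563 for CD2, 0.0667 for CD8A and 0.0857 for NKG7 and medians of the summed count of 196 (95.5 to 435) in males and 347 (154 to 1431) in females. The 6 measured macrophage markers were below 0 as well (median log2 difference -0.33), 1 of them, CD68, at an unadjusted p of 0.0496 and 0 called, with medians of the summed count of 3928 (1724 to 9072) in males and 5907 (2401 to 10126) in females. The part of these cell types in the sex differences of LIPE and PLA2G16 was not tested.

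The 4 genes were then compared over single pigs, after group and sex had been taken out of the log2 values. PLIN1 went with each of the others: Pearson's r was 0.60 with LIPE (permutation p = 0.00011, adjusted over the 6 pairs 0.00036; Spearman's rho 0.47, permutation p = 0.00374), 0.60 with PLA2G16 (p = 0.00012, adjusted 0.00036; rho 0.57, p = 0.00033) and 0.52 with CIDEC (p = 0.00108, adjusted 0.00216; rho 0.50, p = 0.00195), over 36 pigs in each permutation test. Without the 2 pigs farthest from the PLIN1 median, Low 1 and Mean 8, r was 0.47, 0.52 and 0.47. The pig next lowest in PLIN1 was Low 7. Without all 3, r was 0.32 with LIPE (permutation p = 0.0683, adjusted 0.137), 0.48 with PLA2G16 (permutation p = 0.00435, adjusted 0.0261) and 0.36 with CIDEC (permutation p = 0.0376, adjusted 0.113), so that the relations of PLIN1 with LIPE and CIDEC by Pearson's r rested in part on those pigs. Without the 3, rho was 0.32 with LIPE (adjusted permutation p = 0.144), 0.46 with PLA2G16 (adjusted 0.0475) and 0.42 with CIDEC (adjusted 0.0483). By rank, the relation with CIDEC thus still passed.

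The other 3 pairs were looser. CIDEC and LIPE had r = 0.43 (permutation p = 0.00951, adjusted 0.0143; rho 0.32, permutation p = 0.0607), which became 0.21 without Mean 8 and Low 7. LIPE and PLA2G16 had r = 0.40 (permutation p = 0.0164, adjusted 0.0197; rho 0.33, permutation p = 0.0527), which became 0.25 without Low 7 and Mean 8. Both relations rested in part on those pigs. CIDEC and PLA2G16 had r = 0.24 (permutation p = 0.164; rho 0.17, permutation p = 0.310). CIDEC and PLA2G16, the 2 members with the larger differences between Low and the other groups, were thus the pair with the weakest relation over single pigs. Within the Low pigs their r was 0.04 and within the High pigs 0.57 (n = 12 each), and this difference between the groups was not shown (permutation p = 0.196, adjusted over the 6 pairs 0.970).

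**Figure D4:**
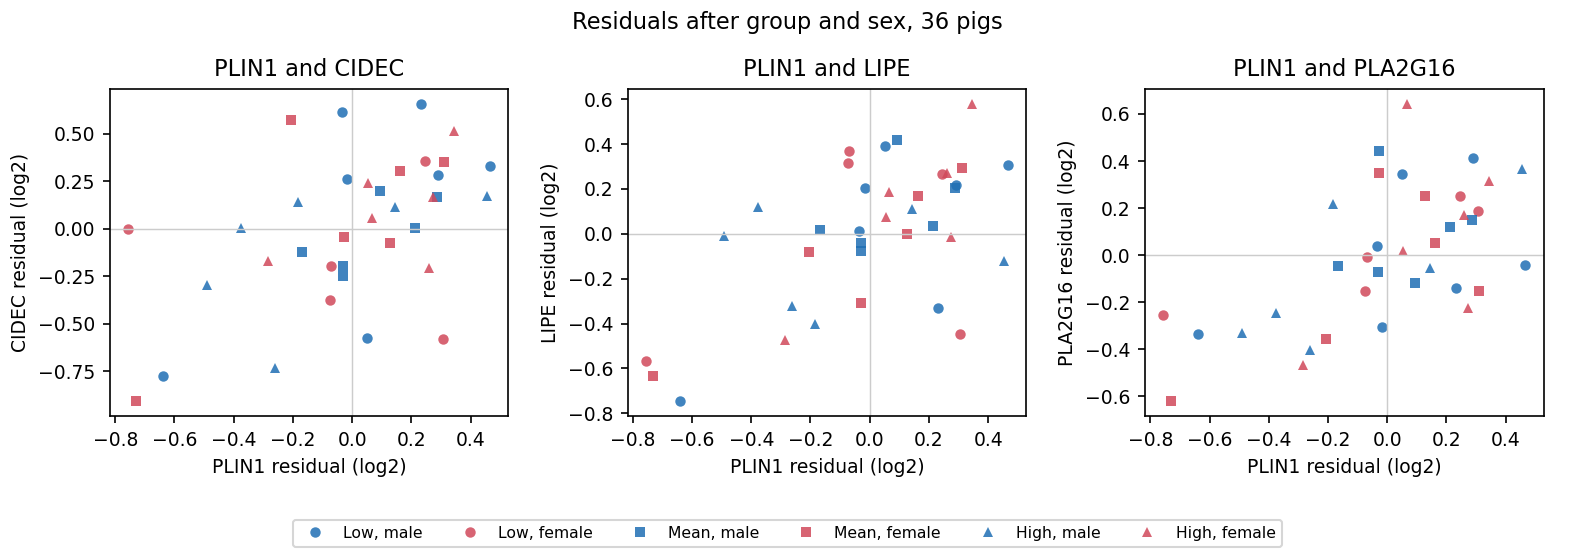
Residuals of the log2 values after group and sex, PLIN1 on the horizontal axis against CIDEC, LIPE and PLA2G16 on the vertical axes, 36 pigs; symbols give the group and colours the sex. The residuals are positively related (r = 0.52, 0.60 and 0.60), and the 3 pigs at the far left, Low 1, Mean 8 and Low 7, carry part of each relation.

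The summed counts of the adipocyte markers, which do not hold any of the 4 genes, were set beside them in the same way. Over the 36 pigs, after group and sex, it went with LIPE (r = 0.58, permutation p = 0.0005, adjusted over 28 relations of genes and marker lists 0.0140; rho 0.55, permutation p = 0.0006; r = 0.49 without the 2 farthest pigs), with PLA2G16 (r = 0.53, permutation p = 0.001, adjusted 0.0140; rho 0.49, permutation p = 0.0014; 0.48 without 2) and with PLIN1 (r = 0.49, permutation p = 0.0032, adjusted 0.0299; rho 0.43, permutation p = 0.0109; 0.39 without 2). With CIDEC it was 0.33 (permutation p = 0.0466, adjusted 0.186). Adjusted over the same 28 relations, the permutation p of rho was 0.00840 for LIPE, 0.0131 for PLA2G16 and 0.0509 for PLIN1. The last did not pass. The macrophage markers went against the coat and fusion genes, with r = -0.42 for PLIN1 (permutation p = 0.0114, adjusted 0.0638; rho -0.55, permutation p = 0.0005, adjusted 0.00840; r = -0.42 without 2) and -0.41 for CIDEC (permutation p = 0.0140, adjusted 0.0653; rho -0.45, permutation p = 0.0059, adjusted 0.0330; -0.29 without 2). Over the 36 pigs, after group and sex, more macrophage marker RNA thus went with less PLIN1 and CIDEC by the rank measure, while Pearson's r did not pass. These relations were not tested within single groups. Over the groups, macrophage markers and CIDEC were both highest in High pigs. PLA2G16 also went with the T or NK cell markers (r = 0.45, permutation p = 0.0047, adjusted 0.0329; rho 0.48, permutation p = 0.0029; 0.33 without 2). These relations were chosen after seeing the data, and counts of a share of one RNA pool are not free of each other.

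The genes most like each member were named from the same residuals over 36 pigs, by Pearson's r and with no test. For PLIN1 they were KLB, the coreceptor of endocrine fibroblast growth factors (r = 0.80), TRARG1, a protein of the glucose transporter vesicles of fat cells (0.79), and SMIM7 (0.79). For CIDEC they were MECR, an enzyme of mitochondrial fatty acid synthesis (0.77), GCDH, glutaryl-CoA dehydrogenase (0.73), and BCAM, a laminin receptor (0.72). LIPE was most like IFT140, a ciliary transport protein (0.71), FOXO4, a forkhead transcription factor (0.69), and ITIH5 (0.68). PLA2G16 was most like RAB2B, a small GTPase of the Golgi (0.73), CHMP3, an ESCRT-III subunit (0.64), and PSMC6, a proteasome subunit (0.63). Dividing the reads by the whole size factor gave r of 0.67, 0.59 and 0.58 for these 3. It gave 0.82 to 0.83 for the genes named for PLIN1, 0.75 to 0.80 for CIDEC and 0.67 to 0.73 for LIPE. Of these 12 genes, none was called between High and Low pigs, and FOXO4 was lower in males, like LIPE itself, by 0.51 on the log2 scale (adjusted p = 0.00184). PLIN1 had 116 genes with r above 0.6, CIDEC 70, LIPE 21 and PLA2G16 18, and PLIN1 itself ranked 20 among all genes by likeness to LIPE and 18 by likeness to PLA2G16.

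Other genes of the same pathways were taken from 5 lists, of which 59 of 96 genes could be matched to the table by symbol. None of the 59 was called in High minus Low. At an unadjusted p under 0.05, 6 were higher in High pigs and 7 were lower, where 835 (6.81%) and 965 of all 12253 genes were, and their median log2 difference was 0.01, beside -0.01 over all 12253 genes. In male minus female 3 of the 59 were called, all lower in males (5.08%, beside 1.23% of all genes), and the median was -0.09, beside -0.01 over all genes.

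Among the lipid droplet proteins (6 of 18 measured), PLIN4, a perilipin of fat cells, had a mean of 11446 ± 8005 in Low and 16414 ± 5345 in High pigs (log2 difference 0.74, unadjusted p = 0.0223, adjusted p = 0.241). ACSL3, which activates fatty acids at young droplets, had 413 ± 107 and 285 ± 46.0 (-0.52, unadjusted p = 0.00773, adjusted p = 0.161). FITM1, a membrane protein that partitions triglyceride into droplets, was low in reads, with 20.1 ± 7.37 and 12.9 ± 3.99 (-0.59, unadjusted p = 0.00945, adjusted p = 0.175). PLIN5 and BSCL2, the seipin gene, had differences of 0.39 and 0.05 (adjusted p = 0.666 and 0.846). Members of this list thus lay on both sides of 0, as PLIN1 and CIDEC did.

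Among the lipases and their cofactors (10 of 12 measured), the gene with the lowest p in High minus Low was G0S2, the inhibitor of the triglyceride lipase PNPLA2. It had 170 ± 175 in Low, 102 ± 105 in Mean and 55.6 ± 28.2 in High pigs (SD, n = 12 each). Its log2 difference was -1.30 (standard error 0.36, unadjusted p = 0.000985, adjusted p = 0.0855) and did not pass, and the spread of the Low pigs was as large as their mean. NCEH1, a cholesterol ester hydrolase of macrophages, and LIPA, the lysosomal acid lipase, were at 0.60 and 0.42 (adjusted p = 0.158 and 0.240). DDHD2 was at -0.23 and MGLL, the monoacylglycerol lipase, at 0.25 (adjusted p = 0.276 and 0.536). The lipase that acts before LIPE, PNPLA2, had 7685 ± 2152 in Low and 7986 ± 1980 in High pigs, a log2 difference of 0.03.

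Of the 3 pathway genes called in male minus female, 2 were lipases, PNPLA2 and ABHD6. PNPLA2 had a mean of 6671 ± 1107 in males and 8723 ± 2155 in females, and was 0.37 lower in males on the log2 scale (adjusted p = 0.0483). Its call was kept in 10 of the 36 fits without 1 pig, and in 1 of 5 other settings, and was lost for example without High 1 (adjusted p = 0.0888). ABHD6, a monoacylglycerol lipase, fell by 0.41 in males (adjusted p = 0.0332, kept in 30 of 36 fits, up to 0.0632 without High 1). PNPLA2 and ABHD6 were named after their values were seen. The median of the 10 lipases and cofactors was -0.24, beside -0.01 over all genes.

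Among the 22 measured genes of the hormonal control of lipolysis (of 32), NPR1, the receptor through which natriuretic peptides raise lipolysis, had 2970 ± 688 in males and 3834 ± 533 in females. It was 0.41 lower in males on the log2 scale (standard error 0.090, adjusted p = 0.0114) and was called in each of the 36 fits without 1 pig. Between High and Low pigs it differed by -0.17 (adjusted p = 0.495). The adenylate cyclases, which make the cyclic AMP that switches LIPE on, lay on opposite sides of 0 in High minus Low without passing: ADCY4 was at -0.42 (unadjusted p = 0.00448, adjusted p = 0.130) and ADCY5 at 0.52 (unadjusted p = 0.00832, adjusted p = 0.166). The beta-1 adrenergic receptor ADRB1 was at -0.81 (adjusted p = 0.317) and the phosphodiesterase PDE4D at -0.29 (adjusted p = 0.414). The median of this list was -0.05 in High minus Low. In male minus female it was 0.02, beside -0.01 over all genes, and 10 of the 22 genes lay below 0. By limma at an unadjusted p under 0.05, 3 of the 22 were lower in males, NPR1 among them, and 3 were higher.

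In the list around PLA2G16, phospholipases A2 and prostaglandin genes (13 of 17 measured), PTGS1, cyclooxygenase 1, had 314 ± 232 in Low and 465 ± 129 in High pigs (log2 difference 0.80, unadjusted p = 0.00541, adjusted p = 0.139). PTGIS, prostacyclin synthase, had 3098 ± 867 and 4118 ± 1006 (0.38, unadjusted p = 0.0165, adjusted p = 0.215). PLA2G7, PLA2G6 and PTGES, a prostaglandin E synthase, were at 0.31, 0.23 and -0.31 (adjusted p = 0.363, 0.379 and 0.518). The median of this list in High minus Low was 0.23, beside -0.01 over all genes. Above 0 lay 8 of its 13 genes, and 47.5% of all genes.

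The genes that handle glycerol and fatty acids or build triglyceride (8 of 17 measured) had a median of -0.14. FABP5, a fatty acid carrier, had the lowest p, at -0.24 (unadjusted p = 0.0422, adjusted p = 0.317). GPD1, LPIN1, GPAM and GPAT3, all on the route from glycerol phosphate to triglyceride, were at -0.23, -0.25, -0.14 and -0.14, with adjusted p from 0.564 to 0.812. Within this small list, 3 of the 8 genes lay above 0, where 47.5% of all genes did.

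**Figure D5:**
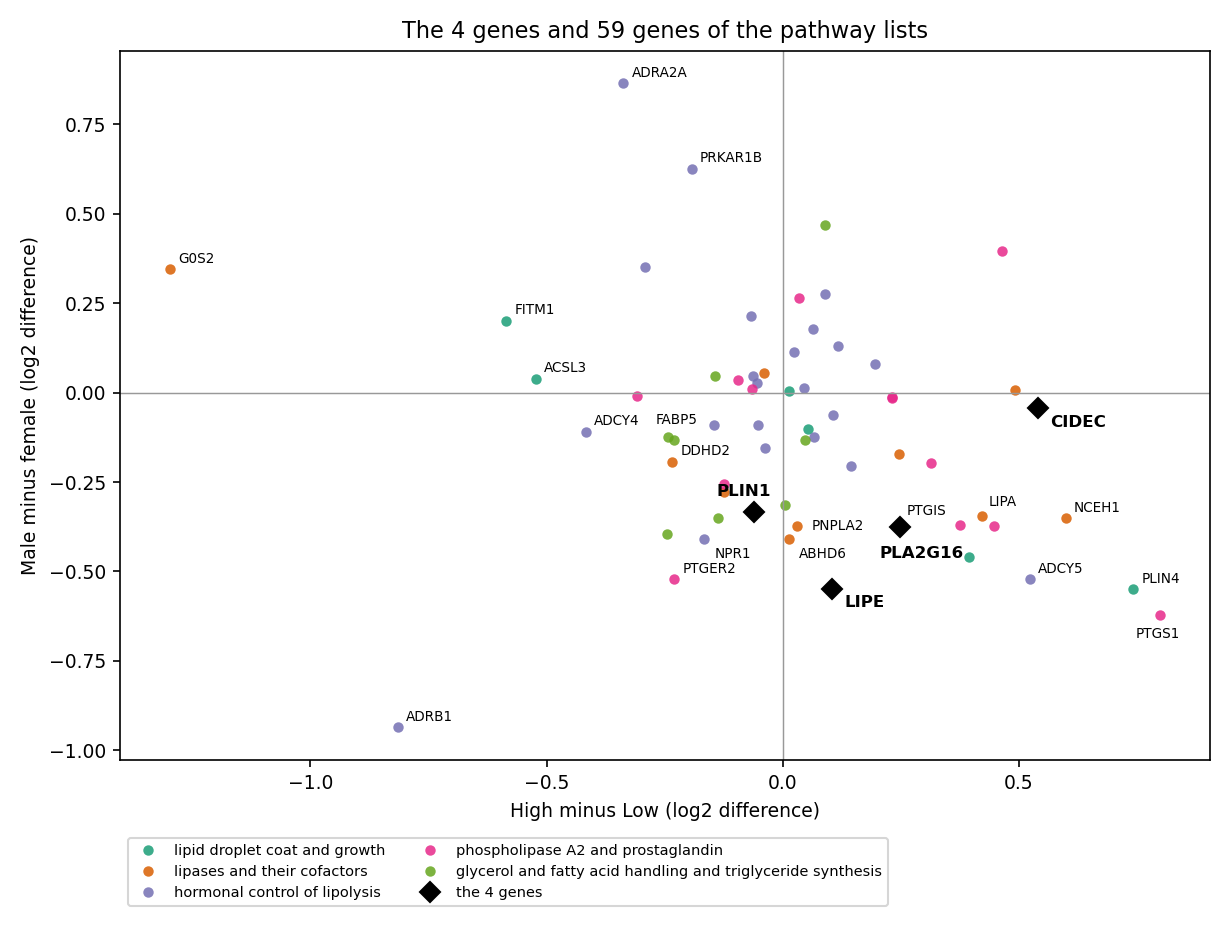
Log2 difference High minus Low (horizontal) against male minus female (vertical) for the 4 genes (black diamonds) and the 59 measured genes of the 5 pathway lists (circles, coloured by list). LIPE, PLA2G16, PNPLA2, ABHD6 and NPR1 lie between -0.55 and -0.37 on the vertical axis, CIDEC is at 0.54 on the horizontal axis, and G0S2 at -1.30 is farthest to the left.

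By RefSeq's Sscrofa11.1 annotation, used here for gene order alone, 5 of the direct neighbours of the members were in the table, KIF7 and PEX11A beside PLIN1, RPUSD3 beside CIDEC, and ATL3 and LGALS12 beside PLA2G16. None was called in High minus Low or in male minus female. PEX11A, which encodes a peroxisome membrane protein, had r = 0.56 with PLIN1 over the residuals of the 36 pigs, and the others lay between -0.23 and 0.01. The neighbours of LIPE were not analysed here.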

How the data were processed

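Subcutaneous fat of 36 pigs was profiled by poly-A RNA-Seq. The deposited table holds log2 values made by the authors: per the study's methods and the submitters' processing notes they used STAR on Sscrofa10.2, HTSeq, a filter on low levels, DESeq size factors and limma's voom. A value is the log2 of reads plus 0.5 over the size factor plus 1, apart from a constant that all genes and pigs share, so depth is corrected in part. Low values step by whole reads (100% within 0.1 of a whole number), and this gave reads per gene, which divided by the size factor are the normalized counts. The study's methods speak of a gender correction at the voom step. Values that lie on whole reads hold no such correction per gene, and sex was therefore a term in the fits here.

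Groups and sexes follow the labels. limma 3.58.1 (R 4.3.3; moderation with intensity trend) was fitted to the log2 values of every pig, with terms for group and for sex. Tests were two-sided, and p-values were adjusted by Benjamini and Hochberg over 12253 genes, with a threshold of 0.05. Ratios of members were tested by permuting labels within sex or group (100000 resamples, 10000 with 1 pig left out). Correlations were taken over residuals from group and sex, with permutation p-values from 100000 resamples (10000 for marker lists and for differences of r). Software was Python 3.11.15, numpy 2.4.6, scipy 1.17.1 and pandas 2.3.3. The High minus Low fit was also run on simulated reads. It called 43 of 100 planted log2 differences of 0.5 and 87 of 100 of 1, with 4 false calls.

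The members, gene lists and tests were chosen with earlier results of these data known. The text names the 4 members, the 5 genes of each pathway list with the smallest unadjusted p in High minus Low, any list gene called there or in the trend, the 3 genes with a symbol most like each member, and marker genes where their value touches a result. Genes named for a call in male minus female (PNPLA2, ABHD6, COL1A2 and DCN) were chosen after their values were seen. Ratios, marker relations, the sex difference within groups, the difference of r and the fit without 3 pigs were added after seeing the data. Symbols were matched for 8320 genes and for 86 of the 167 listed genes. The others, with all B cell and skeletal muscle markers, were not analysed here. Skin (2 of 5 measured), blood (2 of 4) and endothelial (4 of 8) markers had 0 genes called by limma in High minus Low, where 2 endothelial genes were lower at an unadjusted p under 0.05. Sequences and gene lengths were not used, so that levels were not compared between genes and the planned motif search was not run.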

Additional observations from a re-analysis of the deposited data

How the results depend on the processing

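The number of genes called in High minus Low, 5 (0 higher, 5 lower), became 12 without the intensity trend (3 higher, 9 lower), 1 without the 25% of genes with the lowest mean (lower), 9 with the median of each pig subtracted and 9 with the whole size factor (2 higher and 7 lower in both), 3 without sex (all lower), 17 with voom weights (9 higher, 8 lower), 3 with robust moderation (all lower), 2 in males (both lower), 21 in females (18 higher, 3 lower) and 17 with only the 2 groups (4 higher, 13 lower). For the trend, 3 became 5 without the intensity trend, 6 with medians subtracted, 24 with voom weights (13 higher, 11 lower) and 21 in females (18 higher, 3 lower). For male minus female, 268 became 0 in Low pigs alone by limma (342 higher and 778 lower at an unadjusted p under 0.05) and 1 in Mean pigs alone. In High pigs alone it became 208 (139 higher, 69 lower), with 1570 higher and 912 lower at an unadjusted p under 0.05. For the sex difference of High minus Low, 1 became 2 without the intensity trend and 0 with medians subtracted, with the whole size factor and with TMM factors. When 1 pig was left out, these numbers ran from 1 to 292 (without Low 2, 191 higher and 101 lower) for High minus Low, from 1 to 274 (without Low 2, 183 higher and 91 lower) for the trend, from 147 (without High 1) to 546 (without Low 1) for male minus female, from 0 to 33 (without Low 2) for the sex difference, and from 0 to 6 (without Low 8) for Mean minus Low.

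Signs turned for small differences that were not called: PLIN1 in females was 0.13 in High minus Low and 0.070 in the trend, and in males -0.12 in High minus Mean. LIPE in males was -0.0080 in High minus Low, 0.062 in Mean minus Low, -0.070 in High minus Mean and -0.0024 in the trend, and without sex in the model it was 0.023 in Mean minus Low. PLA2G16 in High minus Mean was 0.13 in females, and CIDEC in male minus female was 0.23 in Low pigs. With 1 pig left out, LIPE in Mean minus Low ran from -0.089 to 0.033, PLA2G16 in High minus Mean from -0.089 to 0.015, PLIN1 in High minus Mean from -0.0039 to 0.11 and CIDEC in male minus female from -0.10 to 0.0025. In male minus female, PLA2G16 ran from -0.41 to -0.33 and PLIN1 from -0.39 to -0.30, and their calls changed as given above. Within single groups, with fewer pigs in each fit, LIPE lost its call in Low (-0.53) and Mean (-0.36) pigs, and PLA2G16 in Low (-0.38), Mean (-0.22) and High (-0.53) pigs.

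Over fewer pigs, several correlations by Pearson's r no longer passed an adjusted p of 0.05. For PLIN1 and CIDEC, r was 0.39 in Low, 0.68 in Mean, 0.59 in High pigs, 0.42 in females and 0.36 without the 3 pigs lowest in PLIN1. For PLIN1 and LIPE it was 0.56 in Low, 0.49 in High, 0.51 in males and 0.32 without the 3. For PLIN1 and PLA2G16 it was 0.61 in Low, 0.61 in Mean and 0.63 in High. For CIDEC and LIPE it was 0.24 in Low, 0.50 in High, 0.32 in males, 0.53 in females and 0.22 without the 3. For LIPE and PLA2G16 it was 0.46 in Low, 0.28 in Mean, 0.47 in High, 0.27 in males, 0.49 in females and 0.20 without the 3. For CIDEC and PLA2G16 it was 0.35 and passed with group and sex kept in.

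With 1 pig left out, ratios that had not passed did so in some fits: log2 PLIN1 over PLA2G16 in High minus Low ran from -0.36 to -0.26 and CIDEC over LIPE from 0.36 to 0.53, and in male minus female PLIN1 over CIDEC ran from -0.35 to -0.22, PLIN1 over LIPE from 0.18 to 0.27 and CIDEC over PLA2G16 from 0.27 to 0.39.

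No paired analysis was possible because the labels give no replicate numbers that groups share. Sequencing lane and litter are not known per pig here, and age and group cannot be told apart. Depth was not limiting for the 4 genes, and the number of pigs and the spread among them set the width of the intervals.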
